A study of Mus musculus with 6 samples.

Results

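The 10 genes described here belong to the Bcl2 family, whose proteins decide at the mitochondrial outer membrane whether a cell survives or dies by apoptosis. They were taken by name, as 3 survival genes (Bcl2, Bcl2l1 and Mcl1), 2 pore-forming effectors (Bax and Bak1) and 5 BH3-only genes (Bad, Bid, Bcl2l11, Pmaip1 and Bbc3). Of the 10, 9 had an array probe annotated with exactly 1 gene symbol, among 22180 genes measured in this way. Bax had no such probe and was not analysed here. A gene with several probes was represented by the probe with the highest mean over the 6 arrays, and 2 members, Bcl2 and Mcl1, had 2 probes each.

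The arrays compared YFP-positive with YFP-negative LSK cells, 3 samples of each, from the bone marrow of C57Bl6 mice. LSK cells lack mature lineage markers and carry the surface proteins Sca-1 and Kit, the surface phenotype of blood stem cells and early progenitors. All mice carried a tamoxifen-inducible Cre under the promoter of Cdh5, the VE-cadherin gene of endothelium, and a YFP reporter at Rosa26, and all received tamoxifen on days 1, 2 and 3 after birth and were sampled at postnatal day 27. Both populations were therefore sorted from marrow with the same alleles and treatment, and YFP marks cells in which Cre was active, and their descendants, so that a cell which did not recombine is YFP-negative whatever its origin. Whether replicates of a population came from separate animals or pools is not stated in the labels, so each p-value reflects only how these samples scatter, and that scatter may be technical.

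In the intrinsic pathway of apoptosis, survival proteins of the Bcl2 family hold the effectors Bax and Bak in check. BH3-only proteins respond to stress, loss of growth factors or DNA damage, bind the survival proteins and in some cases activate the effectors, which then open the outer membrane and release cytochrome c. Blood stem and progenitor cells depend on Mcl1 for survival, and loss of cytokine signalling raises Bcl2l11, which encodes Bim, through forkhead transcription factors. Much of this control acts on proteins by phosphorylation, cleavage and degradation, which RNA levels do not show.

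Of the 10 members, 9 had promoter sequences in the RefSeq set searched here (GRCm38.p6). Their 15 annotated starts gave 250 bases each before the start. Windows on a whole chromosome were left out before the search, and the set need not hold every other promoter of the genome. Pmaip1 had no window among those searched. The counts and percentages of windows below refer to that set only. Bid is shown because it was the member that passed the test below, and Bcl2l11 and Bbc3 because they are known targets of forkhead factors and Foxo1 is among the genes that rose. The windows lie at chr6:120916825-120917074 on the minus strand for Bid, at chr2:128125788-128126037 on the plus strand for Bcl2l11 and at chr7:16310011-16310260 on the plus strand for Bbc3, and each runs 5′ to 3′. Capitals mark GC boxes in Bid and the forkhead core in the other two.
Bid: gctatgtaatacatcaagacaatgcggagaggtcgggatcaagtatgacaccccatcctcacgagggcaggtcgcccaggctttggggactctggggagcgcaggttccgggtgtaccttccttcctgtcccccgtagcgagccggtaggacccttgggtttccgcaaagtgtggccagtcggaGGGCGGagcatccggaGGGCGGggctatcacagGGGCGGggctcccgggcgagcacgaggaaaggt
Bcl2l11: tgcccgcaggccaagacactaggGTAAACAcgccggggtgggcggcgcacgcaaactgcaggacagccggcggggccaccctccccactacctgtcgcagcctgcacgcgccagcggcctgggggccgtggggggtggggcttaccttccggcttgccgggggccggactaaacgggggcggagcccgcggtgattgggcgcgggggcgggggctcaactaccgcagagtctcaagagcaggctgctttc
Bbc3: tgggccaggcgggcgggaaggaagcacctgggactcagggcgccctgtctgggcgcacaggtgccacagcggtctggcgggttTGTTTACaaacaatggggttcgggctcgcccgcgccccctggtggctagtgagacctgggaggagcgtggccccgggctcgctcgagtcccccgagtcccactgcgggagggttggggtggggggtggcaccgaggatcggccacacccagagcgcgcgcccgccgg
The GC box was searched as GGGCGG and the forkhead core as GTAAACA, on both strands, and matches of one did not overlap matches of the other. Bid holds 3 GC boxes in its window, and 10 of the 15 member windows, from 7 genes, hold at least 1, beside 32.7% of 32851 promoter windows of the same length. The forkhead core occurs in 2 of the 15 member windows, those shown for Bcl2l11 and Bbc3, and in 3.17% of all windows. The start shown for each of these genes was chosen because its window holds the core, and their other starts lack it. Each of these matches is a description of letters and not of a bound site.

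Over the 22180 genes, which are not independent replicates, pairs of arrays correlated at r = 0.946 to 0.968 within a population and at r = 0.888 to 0.924 across populations. Cdh5, the gene of the lineage mark, was 131-fold higher in YFP-positive cells with limma (7.03 ± 0.43 on the log2 scale, SE, adjusted p = 0.00086). All 10 endothelial markers rose, and their mean log2 level lay at 9.66 to 10.1 in YFP-positive and 4.47 to 5.17 in YFP-negative arrays. Of 9 measured genes that define the LSK gate or mark its stem or progenitor cells, 6 fell and 0 rose. The 3 that did not pass were Slamf1, Procr and Mecom, named after their values were seen. The mean of 10 leukocyte markers, 8.43 to 8.71 in YFP-negative arrays, was low at 6.35 and 6.50 in YFP-positive replicates 1 and 2 and reached 8.79 in replicate 3, and the mean of 10 neutrophil markers, 7.82 to 9.16 on most arrays, peaked in replicate 3 of each population (YFP-positive 9.99, YFP-negative 9.94). No marker on these lists was at 0, since the log2 values start at 1.53. In such bulk samples, fewer cells of a type and less RNA per cell cannot be told apart.

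Each measured Bcl2 family member was tested between the populations. 1 of the 9 measured members fell, Bid, 0 rose and 8 did not pass an adjusted p of 0.05 with limma. Among all genes tested, 4.84% passed, 1.96% lower and 2.88% higher in YFP-positive cells, and 1 gene of 9 (11.1%) is too few to set against that share. The members' median difference was -0.18 on the log2 scale, YFP-positive minus YFP-negative, beside -0.01 for all genes, with 7 members below 0 and 2 above. Their median size of difference regardless of sign was 0.18, against 0.17 for all genes and 0.35 for the 11090 genes above the median level. A 95% interval wholly between -1 and 1, that is within 2-fold either way, was found for 6 of the 9 members, for 72.7% of all genes and for 50.9% of those above the median level. The intervals of Bak1, Bid and Pmaip1 reached beyond 2-fold lower, and 7 of the 9 members had a standard error above the median of all genes. The median standard error was 0.24 for the members, 0.17 for all genes and 0.23 for genes above the median level.

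Levels are log2 expression values, and a level of one gene cannot be set against that of another because probes differ in brightness. All 9 members exceeded the array median over all probes, 3.62 to 3.68, on each of the 6 arrays. Among them, 5 (Bcl2, Mcl1, Bak1, Bad and Bcl2l11) also exceeded the upper quartile of probes, 5.11 to 5.16, on each array. Bid, Pmaip1 and Bbc3 lay in the range between these bounds on most arrays, where no detection call separates signal from background and a fold change can be understated.

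**Figure D1:**
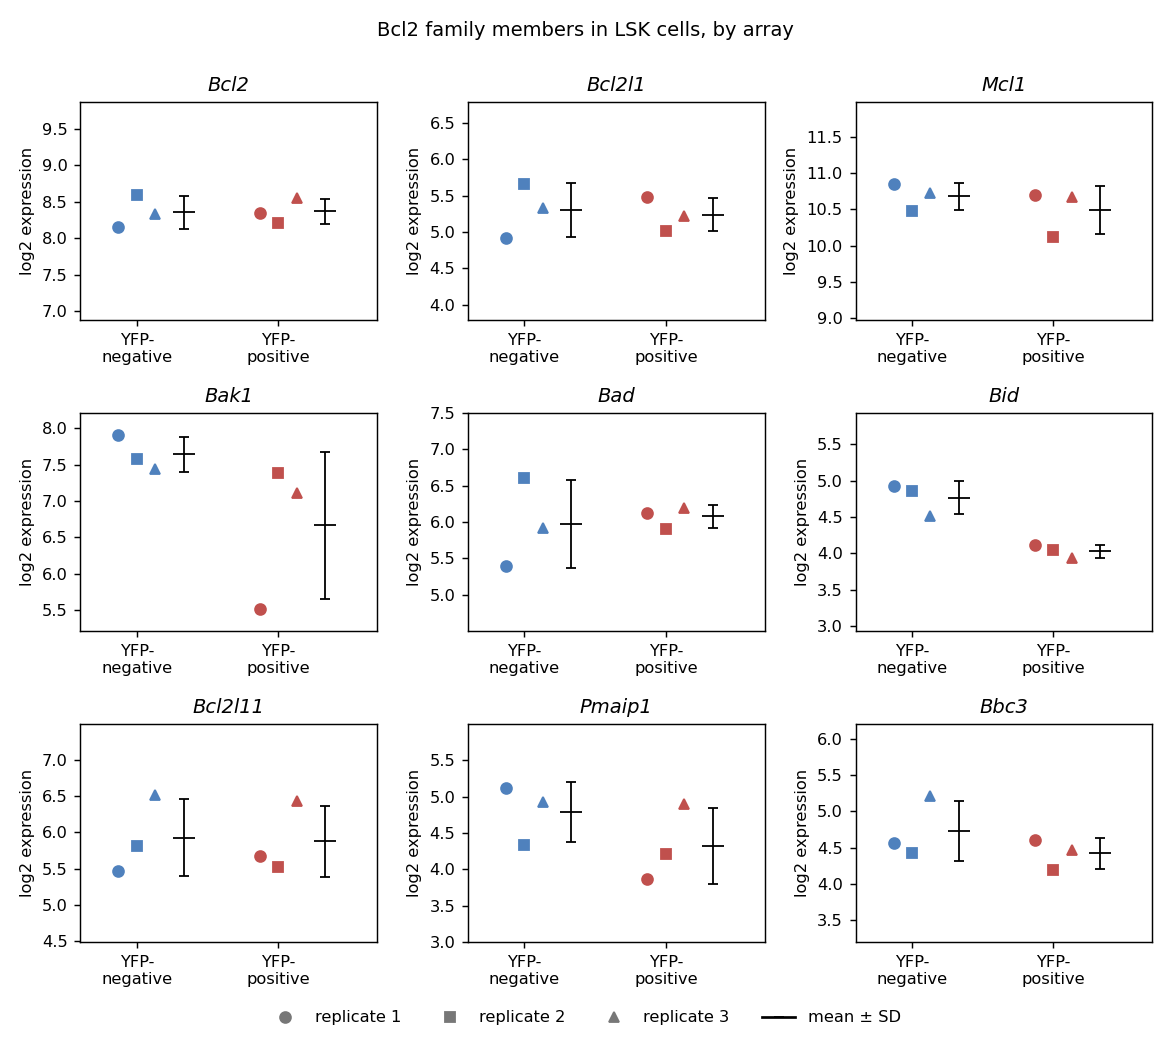
Log2 expression of the 9 measured members (vertical axes, each spanning the same log2 range) in YFP-negative and YFP-positive LSK cells, with 1 point per array, its shape giving the replicate, and a bar for the mean ± SD of 3 arrays. Only in the panels of Bid and Bak1 do the groups not overlap, and the wide Bak1 bar comes from YFP-positive replicate 1 at 5.51.

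Of the survival genes, none passed. Bcl2, which gives the family its name and protects lymphoid cells and progenitors, measured 8.35, 8.21 and 8.55 in YFP-positive replicates 1, 2 and 3 and 8.15, 8.60 and 8.33 in YFP-negative replicates 1, 2 and 3. The 6 values interleave, with the lowest and the highest both in YFP-negative cells. The means were 8.37 ± 0.17 and 8.36 ± 0.23 (SD, n = 3 each), a difference of 0.01 ± 0.16 (SE, limma adjusted p = 0.987). Its 95% interval ran from -0.38 to 0.40, that is from a 1.30-fold lower to a 1.32-fold higher level. Bcl2 was the single member whose interval lay within 1.5-fold. The dimmer Bcl2 probe, at 3.68 to 3.97 on the 6 arrays and so close to the array medians, differed by 0.05.

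Bcl2l1, which encodes Bcl-xL, the survival protein of late erythroid cells and platelets, measured 5.48, 5.02 and 5.22 in YFP-positive and 4.92, 5.66 and 5.34 in YFP-negative arrays. The YFP-positive values all fell inside the YFP-negative range. The difference was -0.07 ± 0.22 (SE, limma adjusted p = 0.931), with a 95% interval of -0.61 to 0.48. Mcl1, a short-lived survival protein that blood stem cells require, measured 10.7, 10.1 and 10.7 in YFP-positive and 10.8, 10.5 and 10.7 in YFP-negative arrays. YFP-positive replicate 2 was its lowest array, and the other 5 lay between 10.5 and 10.8. Mcl1 differed by -0.18 ± 0.20 (SE, limma adjusted p = 0.738, 95% interval -0.67 to 0.30). On its second probe the difference was -0.22, with 8.90 to 9.63 in YFP-positive and 9.02 to 9.82 in YFP-negative arrays, and YFP-positive replicate 2 was again the lowest. Without that replicate the difference on the brighter probe was 0.01.

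Bak1 encodes Bak, an effector that resides in the outer membrane and forms the pore together with, or in place of, Bax. The level of Bak1 was 5.51, 7.38 and 7.10 on the YFP-positive arrays in order of replicate, and 7.91, 7.57 and 7.44 in the YFP-negative arrays. The 3 YFP-positive values lay below all YFP-negative values, replicate 1 far below and replicates 2 and 3 just under them. Bak1 had the largest measured difference of the 9 members, -0.97 ± 0.49 (SE), and the widest interval, -2.17 to 0.23, and it did not pass (limma adjusted p = 0.401). YFP-positive replicate 1 set most of this value. Without it the difference was -0.40 (adjusted p = 0.454), and the adjusted p ran from 0.292 to 0.625 over the 6 fits with 1 array fewer.

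Bid was the BH3-only member that fell. Its protein links death receptors to mitochondria, since caspase 8 cleaves it to a form that activates Bax and Bak. Bid measured 4.11, 4.04 and 3.93 in YFP-positive and 4.93, 4.86 and 4.51 in YFP-negative arrays. The groups did not overlap. The gap between the highest YFP-positive and the lowest YFP-negative array was wider than the range of the YFP-positive arrays. It was slightly narrower than the range of the YFP-negative arrays. The means were 4.03 ± 0.09 and 4.77 ± 0.23 (SD, n = 3 each), a 1.67-fold lower level in YFP-positive cells (-0.74 ± 0.15, SE, limma adjusted p = 0.0479, 95% interval -1.09 to -0.38). An exact two-sided permutation test over the arrays gave p = 0.1, the smallest this design allows. The call was narrow. With single arrays left out it was lost in 5 of 6 fits and kept only when YFP-negative replicate 3 was dropped (adjusted p = 0.0403 to 0.152), while the difference itself stayed between -0.86 and -0.65.

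The means of several marker lists also differed between the populations, in either direction. For the 9 genes of the LSK gate and its stem or progenitor cells, the mean was 5.04 to 5.65 in YFP-positive arrays. It was 7.07 to 7.19 in the YFP-negative ones, and the endothelial mean separated the populations in the other direction. The lymphoid B mean was also lower on every YFP-positive array, and the macrophage and stromal means were higher. These 3 means rested on few genes, and the median differences of the lists were -0.10, 0.01 and 0.04. Of 7 lymphoid B genes 1 passed (Cd79b, lower), of 8 macrophage genes 2 (Vcam1 and Mertk, higher) and of 6 stromal genes 0. The leukocyte mean was low in YFP-positive replicates 1 and 2 and 8.79 in replicate 3, against at most 8.71 in YFP-negative cells. Bid was lowest, at 3.93, on that replicate 3 array. Of the 10 leukocyte markers, 2 lay below every YFP-negative array on all 3 YFP-positive arrays. The part of any of these in the Bid values was not tested. Across all genes the 3 YFP-positive arrays lay entirely below the YFP-negative arrays for 11.9% and entirely above for 10.8%, together 22.7%. Among the members such separation was seen for 2 of 9 (22.2%), Bid and Bak1, both lower.

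Bad, a BH3-only protein that growth factor signalling inactivates by phosphorylation, measured 6.13, 5.90 and 6.20 in YFP-positive and 5.40, 6.60 and 5.93 in YFP-negative arrays. Here the YFP-negative arrays were the more scattered, and they enclosed all YFP-positive values. The difference was 0.10 ± 0.30 (SE, limma adjusted p = 0.922, 95% interval -0.64 to 0.84). Bcl2l11, or Bim, a BH3-only protein that removes blood cells deprived of cytokines, measured 5.68, 5.53 and 6.44 in YFP-positive and 5.47, 5.81 and 6.51 in YFP-negative arrays. Its highest value was in replicate 3 of each population, the same arrays that had the highest neutrophil markers, and the part of the latter in this was not tested. Bcl2l11 differed by -0.05 ± 0.35 between populations (SE, limma adjusted p = 0.97), and its interval of -0.90 to 0.80 reaches from 1.86-fold lower to 1.74-fold higher.

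Pmaip1 and Bbc3 encode Noxa and Puma, BH3-only proteins that p53 induces after DNA damage. Noxa binds Mcl1 and promotes its degradation, and Puma binds all survival proteins of the family. Pmaip1 measured 3.87, 4.21 and 4.89 in YFP-positive and 5.12, 4.33 and 4.93 in YFP-negative arrays. YFP-positive replicate 3 reached the level of the YFP-negative arrays and replicates 1 and 2 lay below them, so that the groups overlapped. The difference was -0.47 ± 0.32 (SE, limma adjusted p = 0.569, 95% interval -1.26 to 0.32). The leukocyte markers had the same split between replicate 3 and replicates 1 and 2, and their part in the Pmaip1 values was not tested. Bbc3 measured 4.60, 4.19 and 4.46 in YFP-positive and 4.57, 4.42 and 5.20 in YFP-negative arrays. A single array, YFP-negative replicate 3, stood above the rest. Bbc3 differed by -0.31 ± 0.24 (SE, limma adjusted p = 0.609), and by -0.08 without that array.

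**Figure D2:**
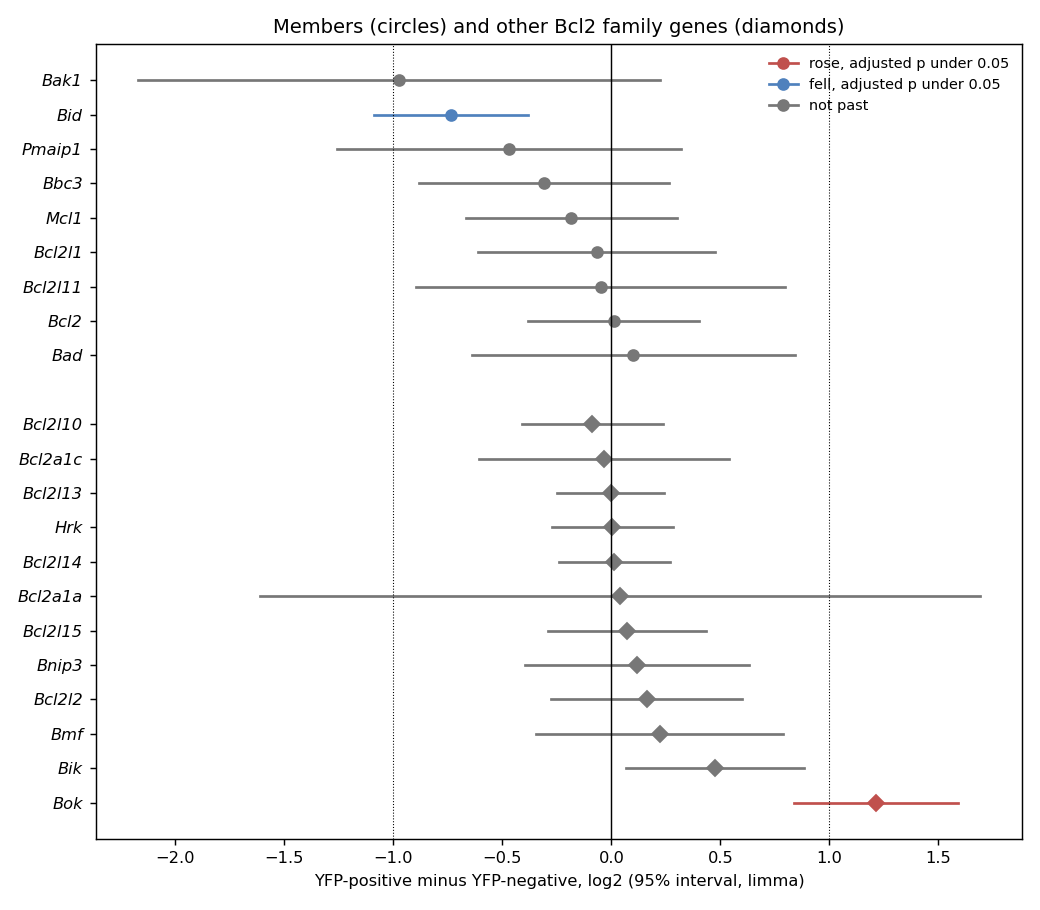
Difference between YFP-positive and YFP-negative LSK cells on the log2 scale (horizontal axis) with its 95% interval from limma, for the 9 members (circles) and 12 other measured Bcl2 family genes (diamonds). Dotted lines mark 2-fold either way. Bid lies below 0 and Bok, at 1.21, above it, and the intervals of all other genes shown but Bik include 0.

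Differences between members on one array show whether 2 genes changed unequally, although their absolute size depends on the probes. Bcl2l1 minus Bcl2 was -2.87, -3.19 and -3.33 in YFP-positive and -3.23, -2.94 and -2.99 in YFP-negative arrays. The balance of these survival genes thus varied as much within a population as between them, with means that differed by -0.08. For Mcl1 minus Bcl2l1 the means were 5.26 ± 0.18 (YFP-positive) and 5.38 ± 0.55 (YFP-negative), and for Bcl2l1 minus Bcl2l11 they were -0.64 ± 0.52 and -0.62 ± 0.52 (SD, n = 3 each). None of these 3 differences was tested.

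Among 12 other measured Bcl2 family genes, 1 rose, 0 fell and 11 did not pass, with a median difference of 0.06. Bok, a Bax-like effector whose protein is controlled by proteasomal turnover, was the one that rose. Its level was 6.65, 6.94 and 6.44 in YFP-positive and 5.56, 5.40 and 5.44 in YFP-negative arrays. All YFP-positive arrays stood above all YFP-negative ones, a 2.32-fold higher level (1.21 ± 0.15, SE, limma adjusted p = 0.0126). The call was lost without YFP-negative replicate 2 (adjusted p = 0.0568), and the endothelial markers were higher on the same 3 arrays. Bik, a BH3-only gene named here after its values were seen, had an interval above 0 (0.07 to 0.88) but did not pass (limma adjusted p = 0.217). Bcl2a1a, a survival gene of neutrophils and macrophages, also named after its values were seen, lay between 3.16 and 3.63 except in replicate 3 of YFP-positive and YFP-negative cells, where it reached 5.32 and 5.02. It followed the replicates with high neutrophil markers and not the populations, with a difference of 0.04 ± 0.68 (SE, limma adjusted p = 0.987). Its value is uncertain because near-identical copies of the gene can share probes.

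Downstream of the pore, cytochrome c and Apaf1 form the apoptosome, which activates caspase 9. Of 18 measured genes of the apoptosome, the caspases and their inhibitors, 1 rose, 1 fell and 16 did not pass, with a median of -0.19. Apaf1 measured 5.72, 6.65 and 5.76 in YFP-positive and 4.68, 4.63 and 4.62 in YFP-negative arrays. It was higher on every YFP-positive array, by 2.64-fold (1.40 ± 0.26, SE, limma adjusted p = 0.0405). Casp2, an initiator caspase linked to chromosome segregation errors and DNA damage, measured 5.83, 6.12 and 5.92 in YFP-positive and 7.48, 6.90 and 6.88 in YFP-negative arrays. It was lower on every YFP-positive array, by 2.19-fold (-1.13 ± 0.20, SE, limma adjusted p = 0.0323). Both calls were fragile. For Apaf1 it was lost when YFP-positive replicate 1 or any YFP-negative array was dropped (adjusted p up to 0.13), and for Casp2 whichever array was dropped (adjusted p = 0.0515 to 0.104).

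The death receptor arm meets the family at Bid. Of its 12 measured genes, 1 rose, 0 fell and 11 did not pass, with a median of 0.08. Tnfrsf1a, the main receptor of tumour necrosis factor, measured 7.47, 8.23 and 7.99 in YFP-positive and 5.06, 5.88 and 5.45 in YFP-negative arrays. The groups were far apart, with a 5.41-fold higher level in YFP-positive cells (2.43 ± 0.28, SE, limma adjusted p = 0.00877), a call kept whichever array was dropped. Casp8, which encodes the protease that cleaves Bid, was named after its values were seen. It was 9.19, 9.39 and 8.96 in YFP-positive and 8.47, 8.70 and 8.69 in YFP-negative arrays, higher on each YFP-positive array but not past the test (0.57 ± 0.15, SE, limma adjusted p = 0.108).

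Among 18 measured genes that induce or accompany BH3-only expression, such as the p53 and forkhead factors, 1 rose, 0 fell and 17 did not pass, with a median of -0.05. Foxo1, a forkhead factor held inactive by growth factor signalling, was 8.05, 7.81 and 7.92 in YFP-positive and 6.71, 6.37 and 6.95 in YFP-negative arrays. It was thus higher on every YFP-positive array, by 2.38-fold (1.25 ± 0.17, SE, limma adjusted p = 0.0161). Its call was lost as the mean of its probes (0.93, adjusted p = 0.141), without YFP-positive replicate 1 and without YFP-negative replicate 1. Foxo3, its relative in blood stem cells, named after its values were seen, measured lower on every YFP-positive array and did not pass (-0.82 ± 0.19, SE, limma adjusted p = 0.0756). The 2 members with a window that holds the forkhead core, Bcl2l11 and Bbc3, had differences of -0.05 and -0.31, and neither passed.

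Of 16 mitochondrial pore and dynamics genes, 0 passed limma's test (3 had an unadjusted p below 0.05, and the unmoderated model gave 0), and their median was -0.23. The smallest p was that of Ppif, cyclophilin D of the mitochondrial permeability pore, at 5.30, 4.80 and 5.20 in YFP-positive and 6.51, 7.15 and 6.04 in YFP-negative arrays. Its YFP-positive values were all the lower ones (-1.47 ± 0.30, SE, limma adjusted p = 0.0524), and it passed without YFP-negative replicate 3 (adjusted p = 0.0448). Of 15 measured kinases, ubiquitin ligases and binding partners that act on Bad, Bim or Mcl1 protein, 0 passed limma's test as well (5 had an unadjusted p below 0.05, and the unmoderated model gave 0), and their median was -0.15. Gsk3b, a kinase that marks Mcl1 for degradation, had the smallest p (0.64 ± 0.18, SE, limma adjusted p = 0.118).

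Receptors that feed survival signals to the family moved in both directions. Of 15 measured cytokine and growth factor receptors, Jak kinases and Stat factors, 4 rose, 3 fell and 8 did not pass (46.7% passed, with a median of 0.30). Of these 7, Kdr and Tek are also on the endothelial marker list and Flt3 and Kit on that of the LSK gate. Those that rose were Kdr and Tek, endothelial receptors for vascular endothelial growth factor and angiopoietins, Il6st, the shared signal chain of the interleukin 6 family, and Jak1. Il6st measured 12.1, 12.3 and 11.9 in YFP-positive and 7.40, 7.78 and 7.08 in YFP-negative arrays, 26.0-fold higher (4.70 ± 0.21, SE, limma adjusted p = 0.000311). Those that fell were Flt3, Il7r and Kit, receptors of lymphoid-primed, lymphoid and early progenitors. Il7r, through which interleukin 7 sustains Bcl2 in lymphoid cells, was at 3.09, 2.90 and 2.96 in YFP-positive and 5.09, 5.71 and 5.14 in YFP-negative arrays. Its YFP-positive values lay below the array medians, so the 5.04-fold measured fall (limma adjusted p = 0.0026) may understate the change. Kit fell 1.86-fold (limma adjusted p = 0.0496) and lost its call whichever array was dropped (adjusted p up to 0.148).

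**Figure D3:**
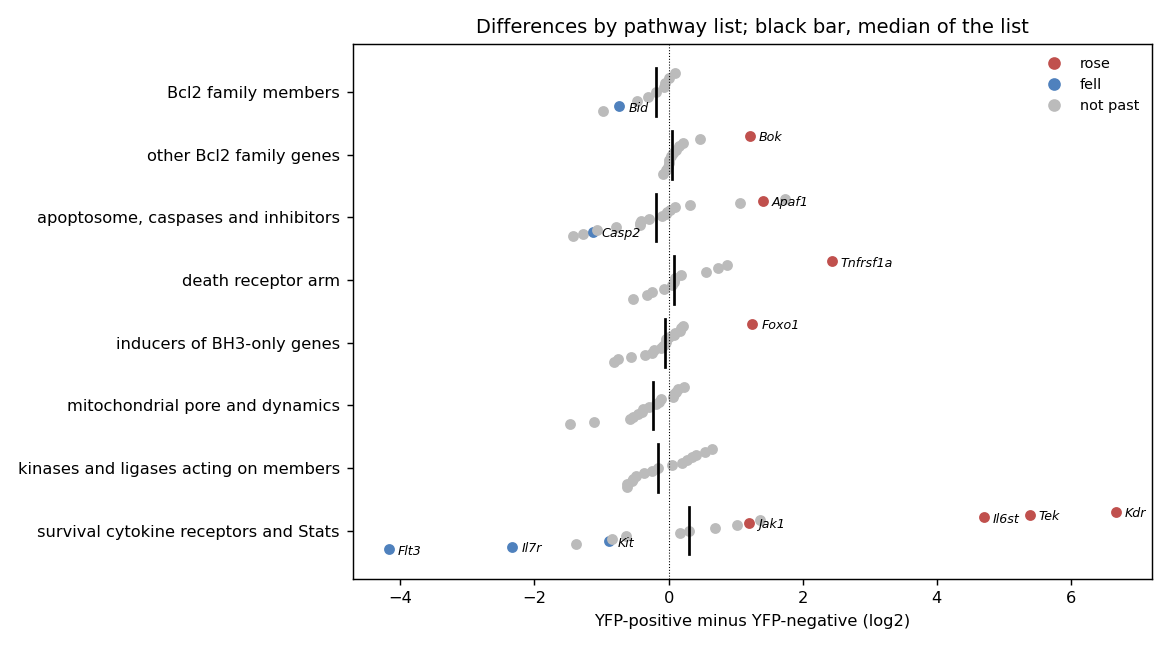
Difference between YFP-positive and YFP-negative LSK cells on the log2 scale (horizontal axis) for each measured gene of the members and of 7 pathway lists (rows), with a black bar at each list's median. Coloured, named points passed an adjusted p of 0.05 with limma. The 9 members lie between -0.97 and 0.10, and the receptor list spans -4.17 to 6.67.

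Over the 7 lists together, 12 of 106 measured genes passed (11.3%), 8 higher and 4 lower, with 32 at an unadjusted p under 0.05, beside the 4.84% of all genes that passed and 17.2% at an unadjusted p under 0.05. The receptor list supplied 7 of the 12. When only the 11090 genes above the median level were tested, 1210 passed, and 15 of the 90 pathway genes among them. With the unmoderated model, 5 of the 106 passed, all on the receptor list, and 0 of the 9 members. Of the 9 members, 1 was at an unadjusted p under 0.05.

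How much each member's value rested on single arrays differed between members. Bid, Bak1, Pmaip1 and Bbc3 measured lower in YFP-positive cells whichever array was dropped, while the sign of Bcl2, Bcl2l1, Mcl1, Bad and Bcl2l11 turned in at least 1 of these 6 fits. Apart from Bid, none of the 9 passed in any of them.

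**Figure D4:**
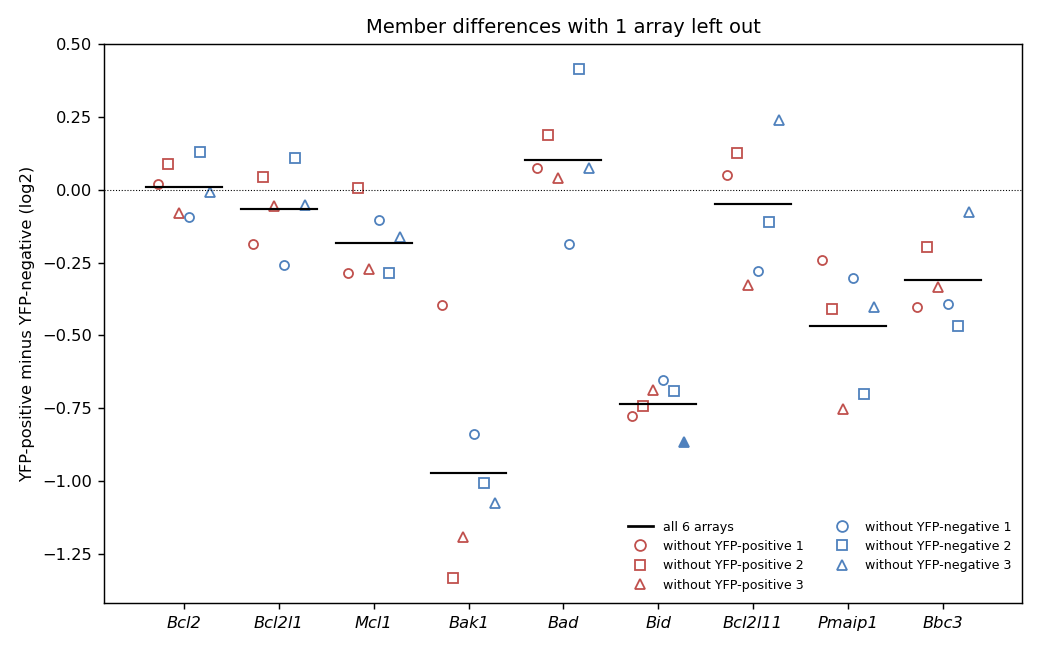
Difference between YFP-positive and YFP-negative LSK cells on the log2 scale (vertical axis) for each of the 9 members with all 6 arrays (black bars) and with 1 array left out (points, red for a YFP-positive and blue for a YFP-negative array left out). Filled points passed an adjusted p of 0.05 with limma. The 1 filled point is Bid without YFP-negative replicate 3, and the Bak1 value moves from -0.97 to -0.40 without YFP-positive replicate 1.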

How the data were processed

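Expression was measured on 6 arrays, 3 per population. Amplification used the Ovation Pico V2 kit on 500 pg of RNA, per the labels' protocols. The submitters' processing notes name Partek. How background, probe summary and normalization were handled is not given in the sources used here. All deposited values are on a log2 scale, read from their range of 1.53 to 13.7, with 41345 probes per array. Of these, 23521 had 1 gene symbol, 1814 several and 16010 were unnamed here. The array number limits the precision.

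limma 3.58.1 in R 4.3.3 (lmFit, eBayes, population as the only term, two-sided) was run on 22180 genes with Benjamini-Hochberg adjustment over all of them, and was tested on simulated data. Members and lists were chosen with earlier results of these data known. Named genes are the 10 members, per list up to 6 genes past the threshold or else the one of smallest p, Cdh5, and those stated as named after their values were seen. Kit is also outside that rule, as the seventh of its list. 14 of 120 genes on the pathway lists had no single-symbol probe. Alternatives were a replicate block, each array left out, the mean of a gene's probes, genes above the median level, quantile normalization, median centring, no moderation, trended robust moderation and all probes tested.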

Additional observations from a re-analysis of the deposited data

How the results depend on the processing

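Each result was recomputed under 14 alternatives. The count of members past the threshold, 1 with all arrays, was 0 with the replicate block, among genes above the median level, with the unmoderated model, with trended robust moderation and over all probes, and 0 to 1 without single arrays. Bid had adjusted p = 0.0788, 0.0535, 0.144, 0.0612 and 0.0886 in the first 5 of these, against 0.0479, and kept its direction in all 14. Its call was kept with the mean of probes, quantile normalization, median centring and without YFP-negative replicate 3. The count over all genes, 1074, was 580 with the replicate block and 180 with the unmoderated model, and 430 to 1185 without single arrays. The pathway count, 12, was 5 with the unmoderated model and 8 to 12 without single arrays. The members' median difference ran from -0.33 to 0.0067 without single arrays, and was 0.0067 without YFP-positive replicate 2. The cause of these changes was not tested. Bok, Casp2, Apaf1 and Kit also lost their calls under the replicate block (adjusted p = 0.0504, 0.0903, 0.0775 and 0.133).

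Replicate numbers are shared by the populations, but deviations from the group means correlated at only 0.10, 0.08 and 0.17 between arrays of the same number, and not every value exceeded 0.1, so the numbers were not taken to pair the samples. Each array nevertheless correlated best with its own number, a hint from the data and not the design. The planned Bcl2 minus Bax difference was not run because Bax was not measured. Levels near the array medians, such as those of Bid, limit what a fold shows.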
